A study of Saccharomyces cerevisiae with 54 samples.

Results

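The 30 genes described here make, esterify or regulate ergosterol in Saccharomyces cerevisiae. They were chosen by symbol as the enzymes of the pathway, their electron donors, the acyltransferases ARE1 and ARE2, and the regulators ECM22 and UPC2. All 30 were found among 6002 nuclear protein-coding genes of the R64 gene table, on 11 chromosomes, with 8 of them on chromosome XIII. For each gene and library, it was computed which percent of its coding region, and of the 400 bp before its start codon, ChIP-seq peaks cover. The choice by symbol uses no measured value, but it was made with earlier results of these data known.

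Ergosterol is the main sterol of fungal membranes and does there what cholesterol does in animal membranes. It is built from acetyl-CoA by way of mevalonate, farnesyl pyrophosphate and squalene. Squalene is closed into lanosterol, which is then demethylated, desaturated and reduced in steps of which several consume oxygen and some are carried out by haem enzymes, and the genes are induced when sterols run low through Upc2 and Ecm22, which bind sterol regulatory elements in their promoters. The lanosterol demethylase Erg11 is the target of azole antifungals.

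The study asked where the Hda1 histone deacetylase complex acts on chromatin, by ChIP-seq of acetylated H3 (H3ac), acetylated H4 (H4ac) and myc-tagged Hda1. H3ac and H4ac were measured in hda1∆ cells (labelled hda1-/-), tup1∆ cells (labelled tup1-/-) and wild-type (WT) cells, and the myc tag in cells with Hda1(arb2{delta})-18myc, which lacks the Arb2 domain, cells with Hda1-18myc (Hda1-myc) and untagged cells. All strains were grown in YPD at 30 °C, each genotype is 1 strain, and the tag of 18 myc copies sits at the C-terminus of Hda1. H4ac and the tag were each measured in a set labelled with an S. pombe chromatin spike-in and in a set labelled without it, H3ac in the set without it only, and each strain has 2 libraries per antibody and set. Tup1 is a general corepressor with which the Hda1 complex is known to interact.

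The 30 peak lists hold positions and fold enrichments but no read counts, so the depth behind them is unknown, and the percent of a region under peaks (peak coverage) says where signal was called and not how high it was. The 18 acetylation lists have 2191 to 3197 peaks each. Those of the Arb2 deletion have 59 to 628, those of Hda1-myc 846 to 983 and those of untagged cells 10 to 235. 2 libraries stood apart from their replicates. Replicate 2 of the Arb2 deletion in the spike-in set has 59 peaks beside 628 in replicate 1, and replicate 1 of untagged cells in that set has 235 beside 10. HDA1 itself had no acetylation peak over its coding region in the 6 hda1∆ libraries, against 8.91% to 19.1% in the tup1∆ and WT libraries. TUP1 was at 0 in the 6 tup1∆ libraries, but its 2 WT H3ac libraries were at 0 too, so that H4ac alone checks this label, with 2.66% to 7.28% in WT.

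A gene was said to gain coverage where the 2 libraries of a strain exceeded the 2 libraries of the strain it was set against by 10 percentage points or more, and to lose it where they fell short by as much. This is a rule of size rather than a test. With 2 libraries against 2, an exact two-sided permutation test cannot give a p below 0.33, and the labels do not say whether the 2 libraries came from separate cultures. The hda1∆ and tup1∆ comparisons share the same WT libraries.

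In WT cells, acetylation lay over the starts of most genes of the pathway. A peak covered the start codon of 20 to 25 of the 30 genes, depending on the library. The 100 bp that begin the coding region were covered by H3ac to 73.3% on average over the 30 genes, against 50.7% over all genes. For H4ac the averages were 69.2% in the spike-in set, against 65.3% over all genes, and 80.4% in the set without spike-in, against 67.3%. Coverage was much lower further in. In the bin centred at 950 bp, which 24 of the genes are long enough to have, H3ac covered 12.5%, against 10.1% over all genes long enough. H4ac there covered 14.2% with spike-in, against 17.5%, and 18% without, against 14.6%. In the bin centred 1050 bp into the coding region, which 20 of the genes have, coverage was 0% for H3ac, against 8.14% over all genes long enough. For H4ac it was 1.68% with spike-in and 0% without, against 14.5% and 11.8%. Broadly covered genes such as ERG20 (1059 bp) and ERG26 (1050 bp) are long enough for the first of these bins only, so the 2 averages rest on different genes.

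**Figure D1:**
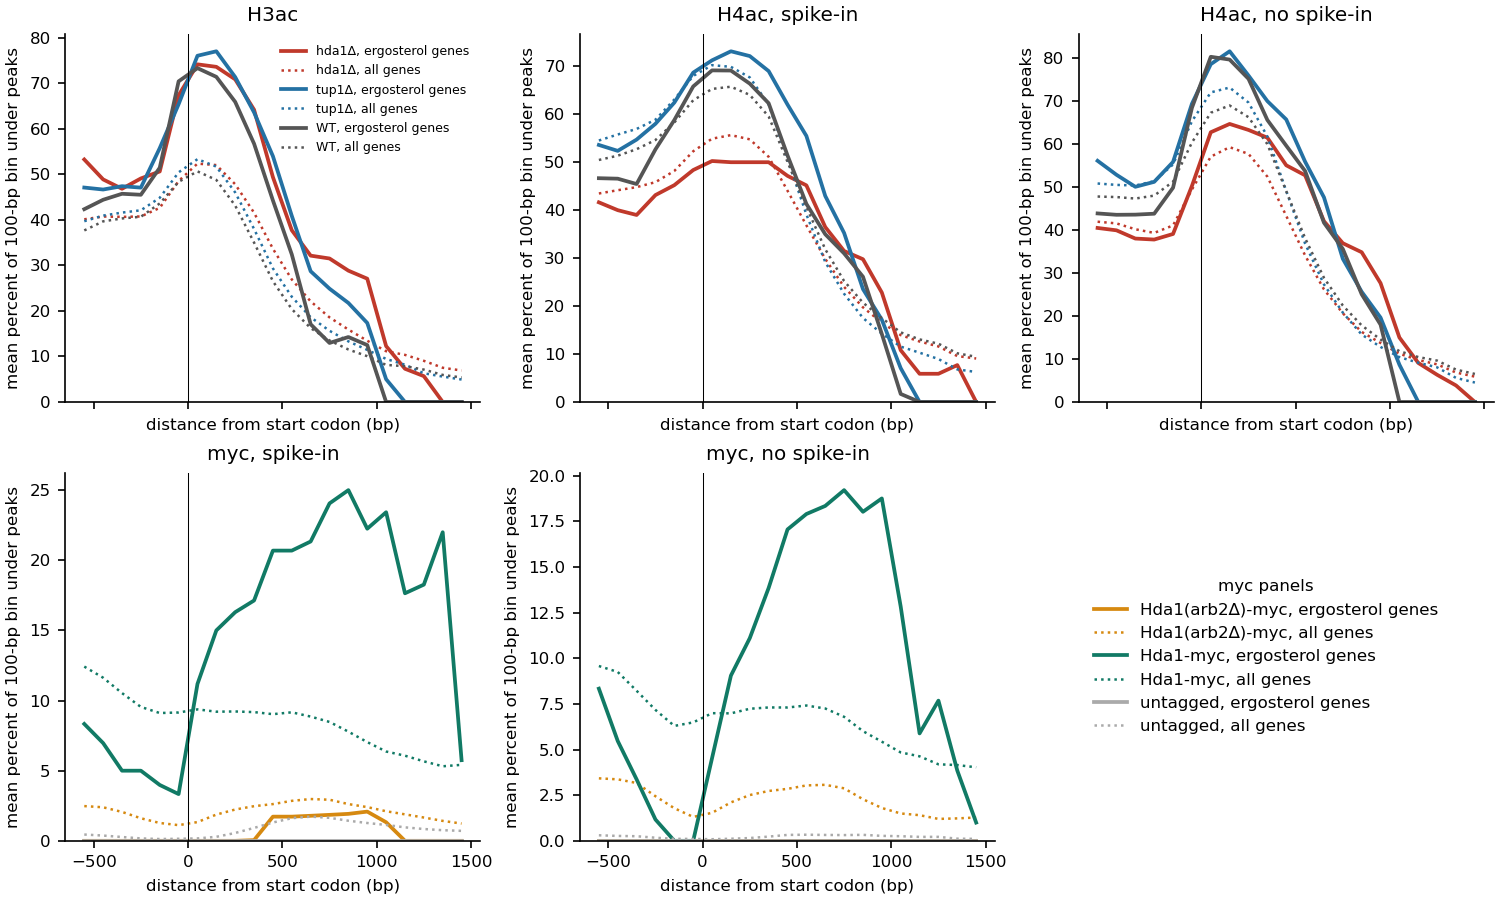
Mean percent of each 100-bp bin under peaks (y axis) by distance of the bin from the start codon in bp (x axis), for the 30 ergosterol genes (solid lines) and all genes (dotted lines), with a panel for each antibody and set and a colour for each strain (mean of 2 libraries). Inside the coding region, each bin is averaged over the genes long enough to have it. The acetylation curves of the ergosterol genes are highest around the start codon, while those of Hda1-myc reach 25% at 850 bp in the spike-in set and stand at 3.33% just before the start codon.

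Over the 18 acetylation libraries of all 3 strains, the genes ranged from complete coverage to none. 14 genes had a peak on the coding region in every one of these libraries. Of them, ERG2, which encodes a sterol isomerase late in the pathway, was completely covered throughout. ERG26 (the decarboxylase of the complex that removes methyl groups from the sterol), ERG28 (the scaffold of that complex) and MCR1 (a mitochondrial NADH-cytochrome reductase that donates electrons) were at 90% or more throughout. ERG20, the farnesyl pyrophosphate synthase, was at 92.8% or more in all of them except WT H3ac replicate 2, at 57.2%. At the other end, ERG1 (squalene epoxidase) and ARE2 (the main sterol acyltransferase) had no acetylation peak on the coding region in any of the 18 libraries. At ERG1 this held for the 400 bp upstream as well, and no acetylation peak came closer than -509 bp before or 1815 bp after its start codon.

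Between these extremes, ERG7, ERG8 and NCP1 were partly covered in every acetylation library. ERG7, the lanosterol synthase, was covered to between 29.3% and 45.1% of its coding region over all 18 libraries. ERG8 (phosphomevalonate kinase) lay between 32.1% and 53.2%, and NCP1, the reductase that feeds electrons to Erg11 and other enzymes, between 17.9% and 38.8%. ERG9, the squalene synthase, was at 21.3% or less, and its H4ac with spike-in was 2.32% and 0% in hda1∆, against 11% and 18.4% in WT, which did not pass the call. The whole 400 bp upstream of ERG27 (the keto reductase of the demethylation complex), ERG7, MCR1, MVD1 (mevalonate pyrophosphate decarboxylase) and NCP1 lay under peaks in every acetylation library, so that no gain could be seen there. In 10 genes, ERG27 and MVD1 among them, part of these 400 bp is the coding region of a neighbour.

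**Figure D2:**
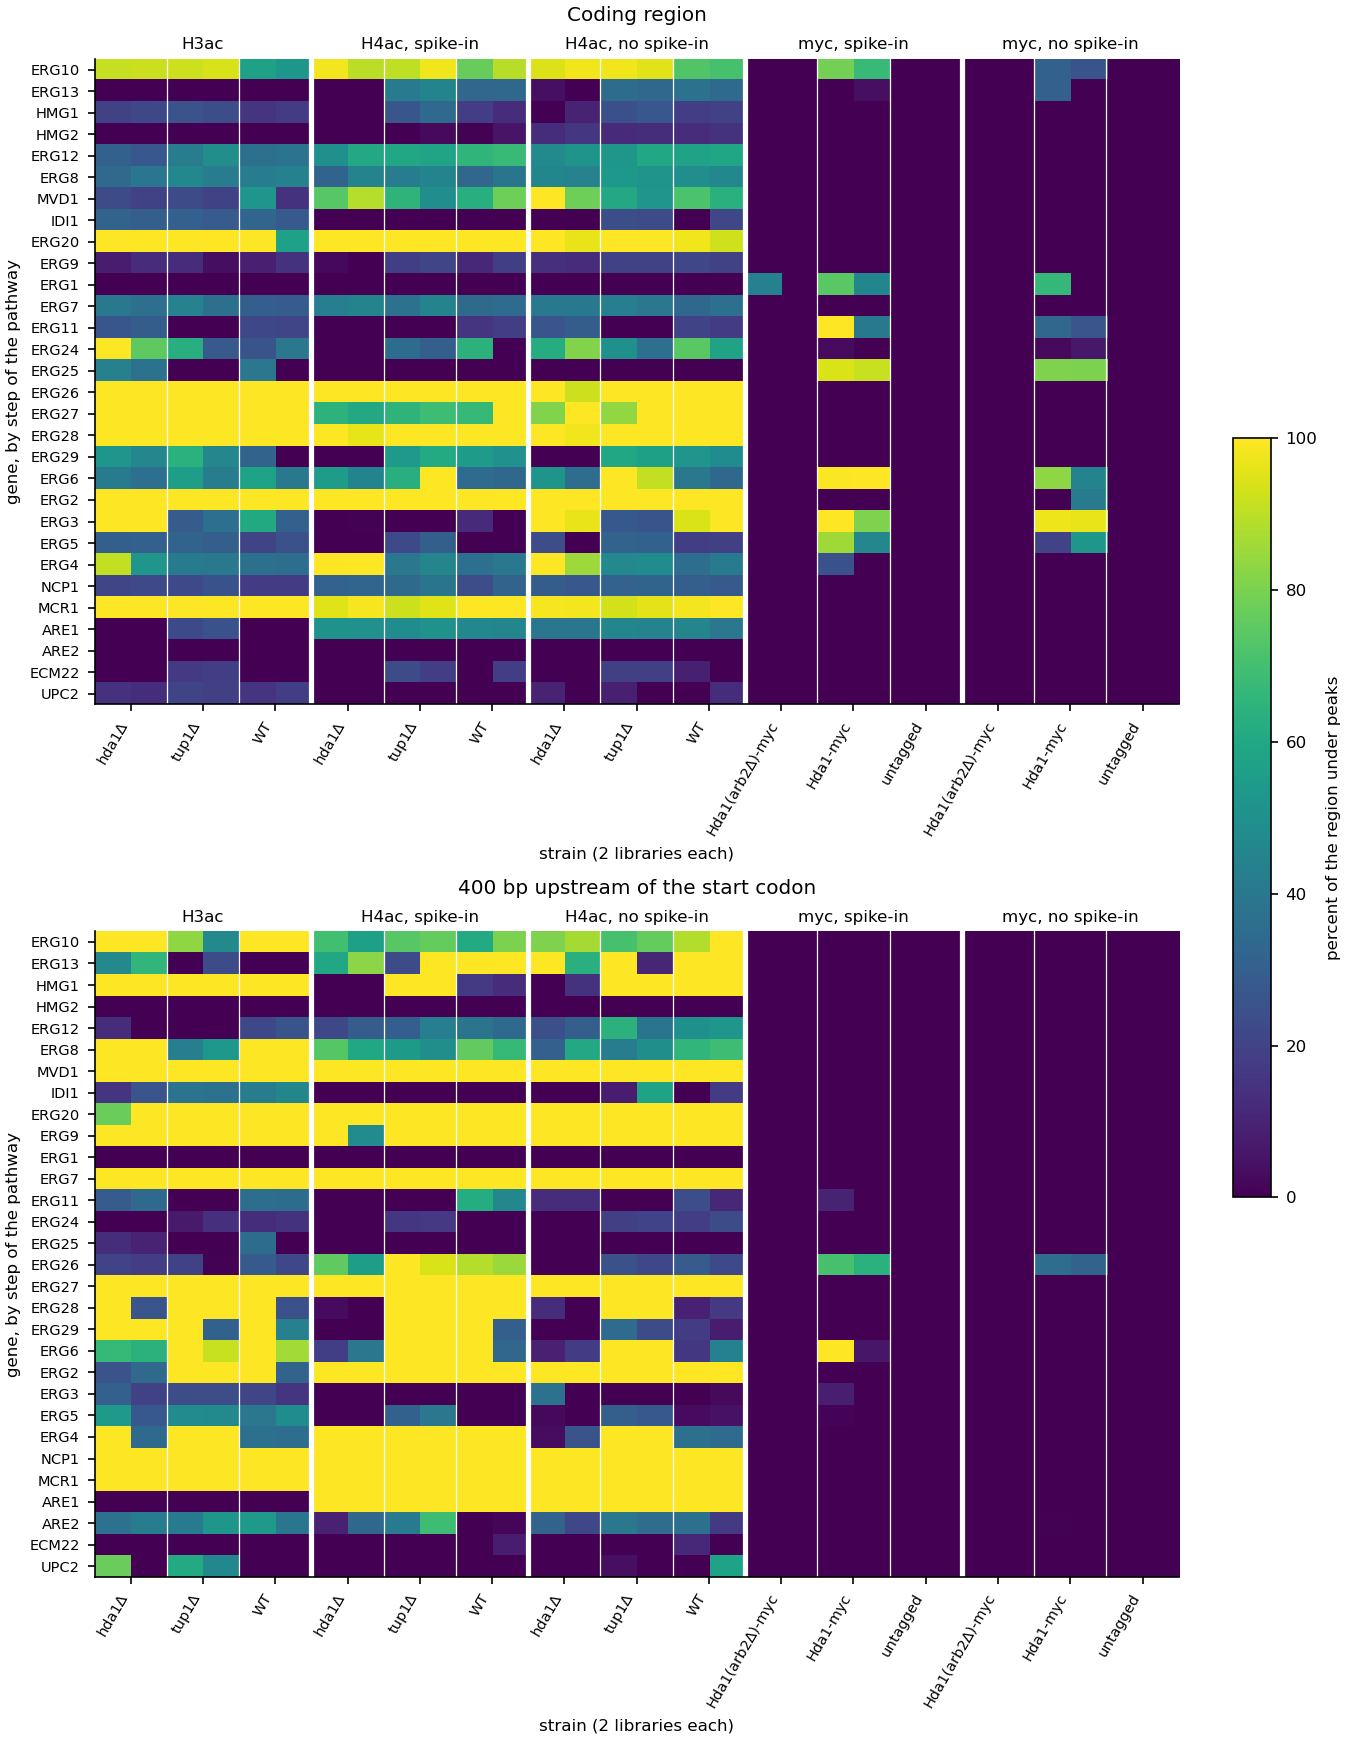
Percent of the coding region (upper panel) and of the 400 bp before the start codon (lower panel) under peaks, by colour from 0 to 100, for the 30 genes (rows, in pathway order) in the 30 libraries (columns, 2 for each strain, antibody and set). ERG2, ERG26, ERG28 and MCR1 are nearly filled across all acetylation libraries and ERG1 and ARE2 are empty there, whereas the myc columns are filled at few genes and empty in untagged cells.

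In hda1∆ cells, H3ac spread further over the coding regions of 5 of the 30 genes and was lost from none. These were ERG10, ERG24, ERG3, ERG4 and ERG29, of which all but ERG10 act between lanosterol and ergosterol. The rule calls a gain at 11.3% and a loss at 2.65% of all genes, so that 5 of 30 (16.7%) is not far from the background. Mean coverage of the 30 genes was 45.4% ± 1.86 in hda1∆ and 37.2% ± 4.20 in WT (SD over 2 libraries), a difference of 8.21 points, against 4.80 points over all genes. The median difference was 0 in both. Without WT replicate 2 the difference of the 30 genes was 5.23 points, and counting the genes touched by a peak gave 1.67.

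ERG10, the acetoacetyl-CoA thiolase that opens the pathway, had 91.2% and 91.8% of its coding region under H3ac peaks in hda1∆, against 57.1% and 52.9% in WT. ERG24, the reductase that acts after Erg11, had 99.6% and 75.1% in hda1∆, against 26.1% and 39.6% in WT. ERG3, a desaturase, was completely covered in both hda1∆ libraries, against 60.7% and 30.5% in WT. The call itself requires that the hda1∆ and WT libraries do not overlap, and the 2 WT libraries of ERG3 were far apart.

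ERG4 encodes the reductase of the last step. Its H3ac coverage was 90.9% and 52.3% in hda1∆, against 36.8% and 36.2% in WT, and the hda1∆ replicates were far apart. ERG29, whose product is needed for the step of Erg25, had 52.5% and 46.4% in hda1∆, against 31.9% and 0% in WT. Its WT libraries differed by more than the gap between the strains. Over the 12 genes between lanosterol and ergosterol, mean H3ac coverage was 70.5% ± 4.58 in hda1∆ and 53.7% ± 6.10 in WT, with a median difference of 7.25 points. The mean difference was 16.9 points, against 4.80 over all genes, but this group holds 4 of the 5 called genes, which raise it. It was 4.02 points over the 9 mevalonate genes and 2.41 over the 3 from squalene to lanosterol. Over the electron donors, acyltransferases and regulators it was 1.78, 0 and -1.59 points.

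Upstream of the start codon H3ac showed no such excess in hda1∆. Mean coverage was 53.5% ± 4.80 in hda1∆ and 53.3% ± 6.10 in WT. ERG13 (HMG-CoA synthase) was called as a gain, where 6.76% of all genes were, with 47% and 66% of its 400 bp covered in hda1∆ and 0% in both WT libraries. In that gene 43.75% of the window is the coding region of its neighbour PGA3, which the same peak spans. ERG6, ERG24 and IDI1 (isopentenyl diphosphate isomerase) were called as losses, where 7.33% of all genes were. ERG6, the sterol methyltransferase that sets ergosterol apart from cholesterol, had 67% and 64.2% in hda1∆, against 100% and 86% in WT. IDI1 had 15.5% and 26.5% in hda1∆, against 42.2% and 46% in WT. ERG24 had none in hda1∆, against 13% and 14.5% in WT, while its coding region gained H3ac.

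H4ac in hda1∆ was lost from some genes of the pathway and gained at others, with no gain upstream. In the spike-in set, coding coverage was gained at ERG4 and ERG6 (4.27% of all genes gained) and lost at ERG11, ERG13, HMG1 and ERG29 (10.9% of all genes lost). In the set without spike-in it was gained at ERG4 and ERG10 (4.42% of all genes) and lost at ERG13 and ERG29 (12% of all genes). The calls common to both sets are the gain at ERG4, a call met by 2.03% of all genes, and the losses at ERG13 and ERG29, a call met by 4.95%. Gains made 6.67% of the 30 genes in each set, and losses 13.3% and 6.67%, near these backgrounds. Mean coding coverage was 36.8% ± 0.369 in hda1∆ and 40.1% ± 0.601 in WT with spike-in, a difference of -3.28 points against -3.81 over all genes, and 45.2% ± 1.18 in hda1∆ and 46.1% ± 0.344 in WT without, a difference of -0.939 points against -3.59. The difference without spike-in was -0.107 points without hda1∆ replicate 2 and -1.77 without replicate 1. The sign of both differences turned when each library was reduced to the same covered length.

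ERG4 was the only one of the 30 genes called as gaining coding coverage in hda1∆ for H3ac and in both H4ac sets, as were 0.633% of all genes. Its H4ac coverage in the spike-in set was 100% and 100% in hda1∆, against 36.6% and 40.1% in WT, and in the set without spike-in it was 100% and 85.4% in hda1∆, against 36.3% and 41% in WT. In the spike-in set, 1 unbroken peak ran in hda1∆ from -1099 or -1132 bp to 3497 or 3503 bp, counted from the ERG4 start codon, past its downstream neighbours SCL1, a proteasome subunit gene, and MPO1. The WT libraries had 2 separate peaks there. One ended 520 or 569 bp into ERG4 and the other began 1726 or 1660 bp after its start codon, beyond its end. The H4ac gain at ERG4 with spike-in is thus a filling of the stretch between a peak on its start and a peak on its downstream neighbours. The set without spike-in shows the same in hda1∆ replicate 1, with a peak from -13 to 3356 bp, and a peak that stops at 1214 bp in replicate 2. In H3ac the stretch was not filled. The hda1∆ peaks on ERG4 ended at 1292 and 742 bp, and the next began at 2041 and 1945 bp.

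The losses of H4ac in hda1∆ lay over the starts of the genes. ERG13 coding coverage in the spike-in set was 0% and 0% in hda1∆, against 33.2% and 33.3% in WT, and without spike-in it was 3.93% and 0% in hda1∆, against 37.4% and 34.1% in WT. The hda1∆ peaks from the upstream neighbour ended at -163 and -71 bp from the start codon in the spike-in set and at 57 and -147 bp in the other set, against 489 to 551 bp inside ERG13 in the 4 WT libraries. ERG29 had no H4ac peak in any of the 4 hda1∆ libraries, against 54.8% and 50.4% in WT with spike-in and 52% and 48.5% in WT without.

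HMG1 and HMG2 encode the HMG-CoA reductase isozymes, the main control point of the mevalonate branch. HMG1 coding coverage by H4ac in the spike-in set was 0% and 0% in hda1∆, against 18.2% and 12.6% in WT. Its 400 bp upstream had 0% and 0% in hda1∆, against 17% and 12.5% in WT, and without spike-in it had 0% and 14.8% in hda1∆, against 100% and 100% in WT. The H3ac peaks on the same 400 bp filled it completely in all 6 libraries of the 3 strains. HMG2, by contrast, had no acetylation peak in its 400 bp in any library and at most 15.8% of its coding region covered.

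Ahead of the start codon, mean H4ac coverage was lower in hda1∆ both over the 30 genes and over all genes. In the spike-in set mean coverage of the 400 bp was 43.9% ± 0.601 in hda1∆ and 55.7% ± 3.44 in WT, a difference of -11.75 points, against -9.36 points over all genes, and 12 genes were lower, 17 equal and 1 higher, with a median difference of 0. In the set without spike-in it was 41.3% ± 0.271 in hda1∆ and 51.5% ± 1.77 in WT, a difference of -10.1 points, against -9.24 points over all genes, and 17 genes were lower, 12 equal and 1 higher. With lists of equal covered length the difference without spike-in came to -3.83 points. The genes called for a loss were ERG11, ERG13, ERG28, ERG29 and HMG1 with spike-in (12.8% of all genes) and ERG12, ERG24, ERG26 and HMG1 without (14.9% of all genes). ERG28 had 3% and 0% in hda1∆, against 100% and 100% in WT, with spike-in. ERG26 had 0.25% and 0% in hda1∆, against 28.8% and 22% in WT, without spike-in, although its coding region stayed covered. HMG1 alone was called in both sets, a call met by 6.35% of all genes, and no gene of the 30 was called as a gain, where 1.77% and 1.55% of all genes were, and 0.467% in both sets. With H3ac as a further condition, none of the 30 genes was called in all 3 sets in hda1∆ for a loss over the coding region (0.35% of all genes), or for a gain (0.133%) or a loss (0.933%) upstream.

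A peak covered the start codon of 16 and 14 genes in the hda1∆ H4ac libraries with spike-in, against 20 and 21 in WT, and of 20 and 16 in hda1∆ without spike-in, against 23 and 25 in WT. For H3ac the numbers were 22 and 21 in hda1∆, against 23 and 21 in WT. No such count was made over all genes. Over all genes, H4ac covered the first 100 bp of the coding region less in hda1∆ too. With spike-in it covered 54.9% in hda1∆, against 65.3% in WT, and without 57.1%, against 67.3%. For H3ac the values were 52.4% in hda1∆ and 50.7% in WT. At 450 bp into the ergosterol genes, H4ac was still lower in hda1∆. With spike-in it covered 47.2% in hda1∆, against 51.4% in WT, and without 55.1%, against 59.7%. At 650 bp the order was slightly the other way, with 36.5% in hda1∆, against 35% in WT, with spike-in and 42.1%, against 41.7%, without. In the bin centred at 1050 bp, H4ac covered 10.8% in hda1∆, against 1.68% in WT, in the spike-in set, and 15% in hda1∆, against 0% in WT, in the set without. H3ac covered 12.3% in hda1∆, against 0% in WT. Over all genes of sufficient length H3ac covered 11.2% in hda1∆, against 8.14% in WT, the same direction, while the H4ac averages were 13.9% in hda1∆, against 14.5% in WT, with spike-in and 11.2% in hda1∆, against 11.8% in WT, without. The averages of 20 genes at 1 distance rest on few peaks, that of ERG4 among them.

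In tup1∆ cells, 2 genes of the pathway were called as losing peak coverage in all 3 sets, ERG11 in both regions and ERG8 upstream only. ERG11 had no H3ac and no H4ac peak on its coding region or its 400 bp upstream in any of the 6 tup1∆ libraries. The peak was narrow in WT, where its coding region was covered to 21.8% and 20.9% by H3ac, to 15.4% and 18.3% by H4ac with spike-in, and to 20.5% and 17.4% by H4ac without. Its 400 bp upstream were covered to 36.2% and 35.5%, 62% and 46.2%, and 23.5% and 11.5% in the same WT libraries. Loss in all 3 sets was met by 0.65% of all genes over the coding region and by 0.533% upstream, where ERG8 was the other of the 30 genes.

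The WT peaks on ERG11 sit on its start. They reached from -145 to 346 bp and from -142 to 332 bp around the start codon in H3ac, and lay between -248 and 326 bp in the 4 H4ac libraries. Upstream of ERG11 lies SOD2, the mitochondrial superoxide dismutase gene, and the acetylation peak there was present in all 18 acetylation libraries, those of tup1∆ included. In hda1∆ the ERG11 peak was kept in H3ac, with 26.7% and 29.4% of the coding region covered, and in H4ac without spike-in, with 26.2% and 29.3%. It was absent from both hda1∆ H4ac libraries with spike-in. Because the WT peaks are narrow, the tup1∆ call on the coding region was lost in all 3 sets with gene positions moved by 200 bp in one direction, and the call upstream with positions moved as far in the other.

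**Figure D3:**
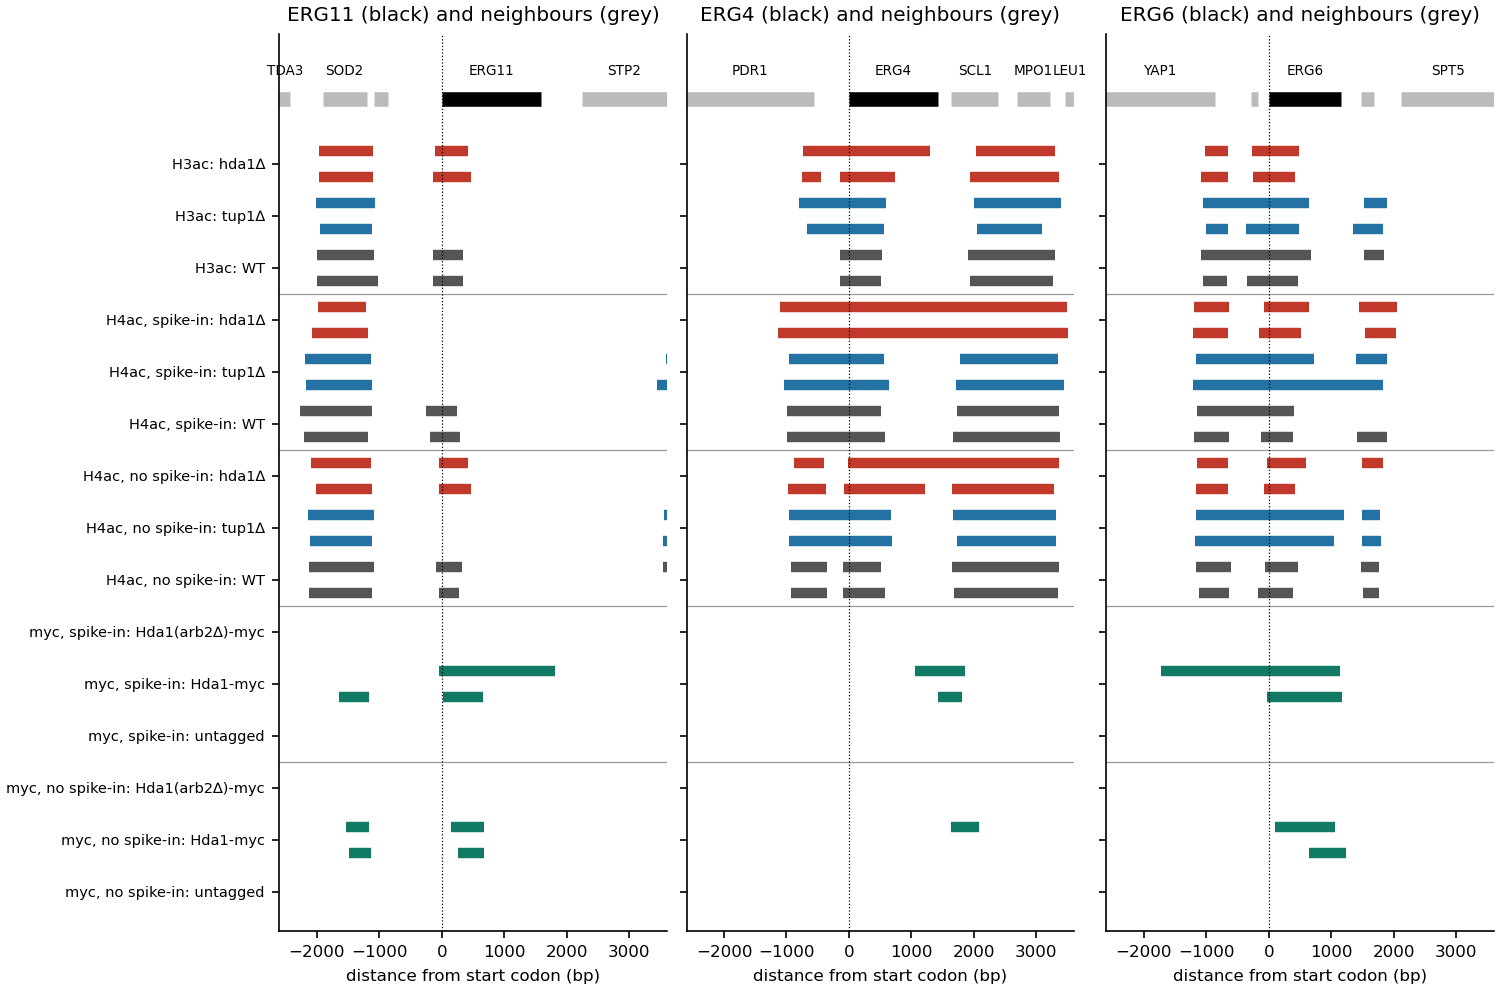
Peaks (bars) around ERG11, ERG4 and ERG6 by distance from the start codon in bp (x axis), in each of the 30 libraries (rows, coloured by strain), with the genes drawn above them. ERG11 has no acetylation peak in the 6 tup1∆ rows, ERG4 lies under 1 unbroken H4ac peak in the hda1∆ rows of the spike-in set, and the Hda1-myc bars cover parts of ERG11 and ERG6, crossing the start codon in replicate 1 at ERG11 and in both replicates at ERG6 in the spike-in set.

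ERG8 lost coverage upstream and not over its coding region. Of its 400 bp, H3ac covered 42.8% and 53.2% in tup1∆, against 100% and 100% in WT. H4ac covered 54.5% and 49.5% in tup1∆, against 76% and 67% in WT, with spike-in, and 42% and 49.8% in tup1∆, against 66% and 68.8% in WT, without. The peak over the ERG8 start codon began at -171 and -213 bp in the tup1∆ H3ac libraries, against -520 and -454 bp in WT. The coding region of the neighbour ESC1 makes up the far 48.5% of this window, so that what was lost lies mainly over the end of ESC1, and with a window of 200 bp ERG8 was called in none of the 3 sets. hda1∆ libraries had 100% and 100% in H3ac, as in WT.

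The other tup1∆ calls for H3ac were gains at ERG10, ERG29, ARE1 and ECM22 over the coding region (10.3% of all genes gained, 4.97% lost). ERG10 had 92.6% and 93.8% in tup1∆, against 57.1% and 52.9% in WT, close to its hda1∆ values. ARE1, the minor sterol acyltransferase, had 22.5% and 25.2% in tup1∆ and 0% in both WT libraries. ECM22 had 17% and 18.7% in tup1∆ and 0% in both WT libraries. ERG29 had 63.9% and 46.2% in tup1∆, against 31.9% and 0% in WT. In ARE1 and ECM22 the hda1∆ libraries were at 0% as well.

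Upstream, H3ac was gained in tup1∆ at UPC2 and ERG4 (9.15% of all genes) and lost at ERG8, ERG11, ERG10 and ERG12 (6.91%). UPC2 had 61.2% and 46.8% of its 400 bp covered in tup1∆ and 0% in both WT libraries, while hda1∆ had 77% and 0%. ERG4 had 100% and 100% in tup1∆, against 36.8% and 36.2% in WT. ERG12, the mevalonate kinase, had 0% and 0% in tup1∆, against 21.5% and 26% in WT. ERG10 had 83.5% and 47.5% in tup1∆, against 100% and 100% in WT, in contrast to its coding region. Mean H3ac coverage of the 30 genes was 41.6% ± 1.77 in tup1∆ and 37.2% ± 4.20 in WT over the coding region, a difference of 4.41 points against 2.71 over all genes, and differed by 0.629 points upstream, against 1.51 over all genes. Without WT replicate 2 these differences were 1.43 and -3.69 points and without WT replicate 1 they were 7.38 and 4.95 points. Thus 1 WT library decides the sign upstream, and the size but not the sign over the coding region.

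H4ac in tup1∆ was gained over the coding regions of ERG5 and ERG6 in both sets, a call met by 4.52% of all genes. ERG5, a desaturase of the sterol side chain, had 22% and 30.4% in tup1∆ and 0% in both WT libraries with spike-in, and 31.8% and 31% in tup1∆, against 18.5% and 18.9% in WT, without. ERG6 had 63.3% and 100% in tup1∆, against 34.8% and 33.8% in WT, with spike-in, and 100% and 90.9% in tup1∆, against 40% and 33.9% in WT, without. The call itself requires that the tup1∆ and WT libraries do not overlap. At ERG6 the tup1∆ peaks without spike-in ran from -1172 or -1178 bp, over the small upstream gene MIN4, to 1198 or 1046 bp from the start codon, where WT had separate peaks on the start of ERG6 and near YAP1.

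In the spike-in set these were the only coding gains (7.66% of all genes), with ERG11 the only loss (5.48%). The set without spike-in added gains at ERG10 and ECM22 (8.23% of all genes) and a loss at ERG3 (5.33%). ERG3 had 27.4% and 26% in tup1∆, against 94.4% and 100% in WT, in that set, but hardly any H4ac in the spike-in set, where WT itself had 11.9% and 0%. Its WT H4ac thus differed between the sets. ERG10 had 97.8% and 95.6% in tup1∆, against 72.7% and 70.8% in WT, and ECM22 had 19.1% and 19.1% in tup1∆, against 8.63% and 0% in WT, without spike-in.

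Upstream, the gains of H4ac in tup1∆ were at HMG1, ERG5, ERG24 and ARE2 with spike-in (9.3% of all genes) and at ERG4, ERG5, ERG6 and ERG28 without (9.75%). Losses were at ERG8 and ERG11 with spike-in (3.9%) and at these and ERG10 without (3.2%). HMG1 had 100% and 100% in tup1∆, against 17% and 12.5% in WT, with spike-in, but both strains were at 100% without. ERG4 was at 100% in both strains with spike-in and had 100% and 100% in tup1∆, against 37% and 35% in WT, without. At both genes it was the WT libraries that differed between the sets, and not those of tup1∆. ERG5 was the gain common to both sets (4.8% of all genes) and ERG8 and ERG11 the losses common to both (1.5%), beside the loss of ERG11 over the coding region (2.88%). No gene of the 30 gained in all 3 sets in tup1∆, over the coding region (2.58% of all genes) or upstream (2.22%). Mean coverage of the 400 bp was 61% ± 2.79 in tup1∆ and 55.7% ± 3.44 in WT with spike-in, a difference of 5.28 points against 4.58 over all genes, and 56.7% ± 1.79 in tup1∆ and 51.5% ± 1.77 in WT without, a difference of 5.21 points against 3.84. The value with spike-in was 2.85 without WT replicate 2 and 3.31 without tup1∆ replicate 2, both below that over all genes, and the value without spike-in turned to -5 when genes touched by a peak were counted.

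**Figure D4:**
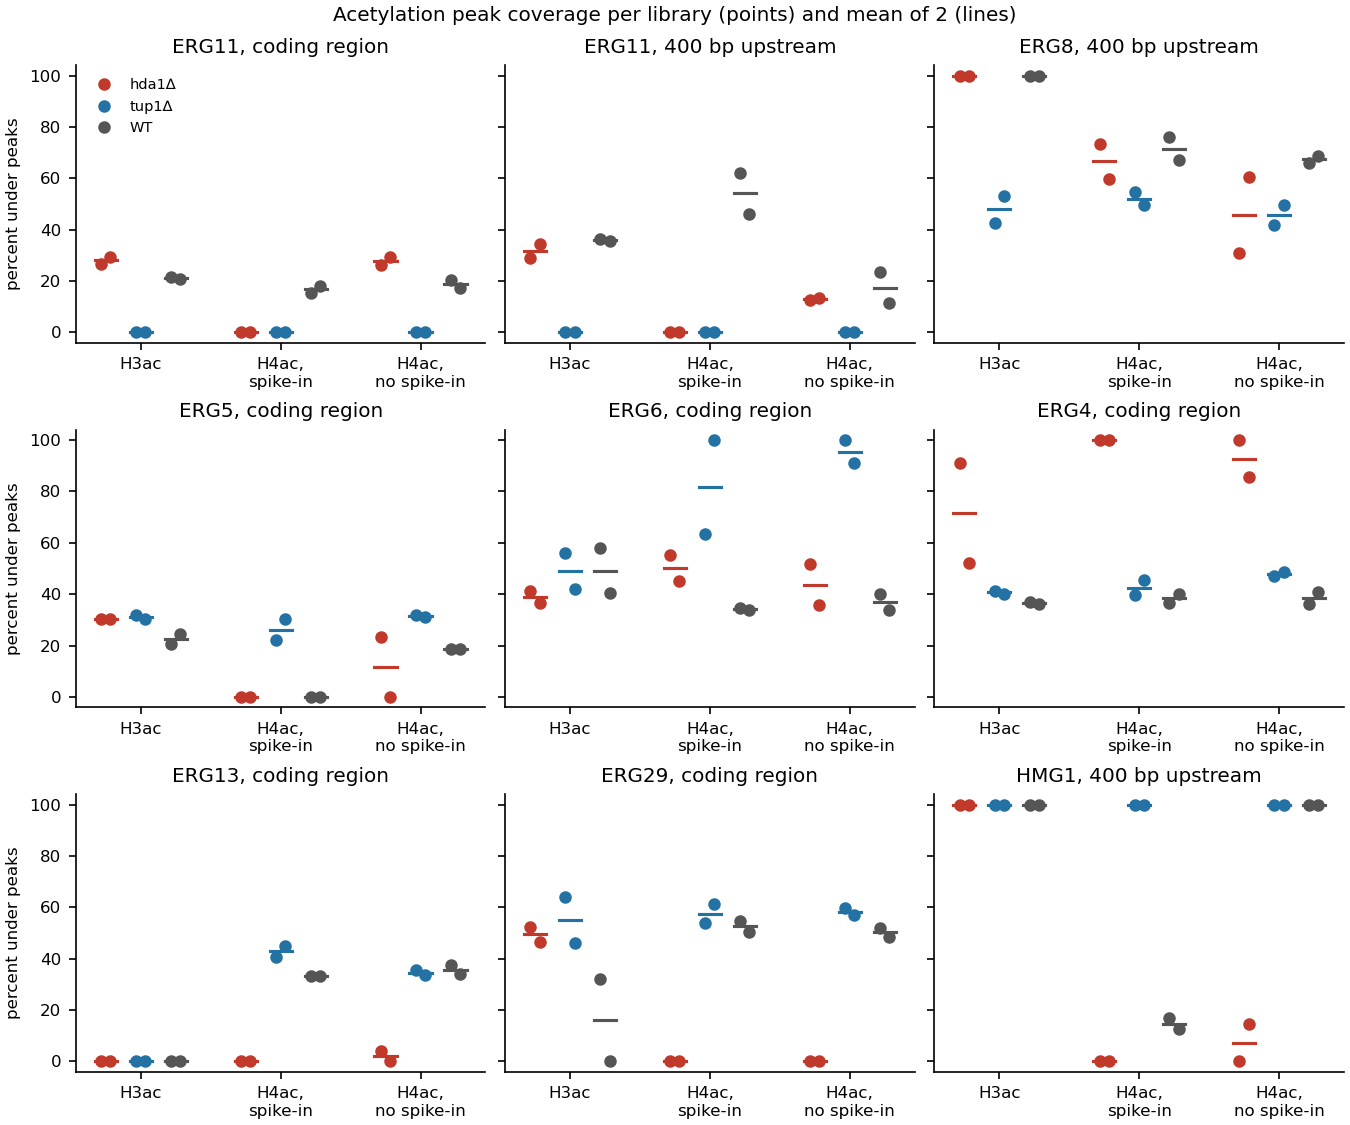
Percent of the region under H3ac or H4ac peaks (y axis) in each library (points, 2 for each strain and set) with the mean of 2 (lines), for 9 gene regions, with hda1∆, tup1∆ and WT side by side in each set (x axis). ERG11 lies at 0 in every tup1∆ library, ERG4 is highest in hda1∆ in each set, ERG5 and ERG6 are highest in tup1∆ in both H4ac sets, and ERG13 and ERG29 lie between 0 and 3.93% in hda1∆ in both H4ac sets.

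The pairs of related genes had unlike patterns. HMG1 had acetylation on its coding region and its 400 bp in all WT libraries, and HMG2 none on its 400 bp. ARE1 had its 400 bp filled by H4ac in all 12 H4ac libraries and empty of H3ac in all 6 H3ac libraries, and the window is shared with the divergent gene BUD23. ARE2 had no peak on its coding region and, upstream, 41.8% and 52.8% in tup1∆, 37.5% and 42% in hda1∆ and 54% and 39.2% in WT for H3ac. Of the regulators, UPC2 had H3ac on 12.9% to 20.6% of its coding region in all 3 strains and no H4ac in the spike-in set, whereas ECM22 had H3ac in tup1∆ alone.

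Hda1-myc was found on the coding regions of 7 of the 30 genes in the spike-in set and of 6 in the set without, relative to untagged cells. The 6 genes common to both sets are ERG10 from the mevalonate branch and ERG3, ERG5, ERG6, ERG11 and ERG25 from the branch after lanosterol, and ERG1 was added in the spike-in set. Such a call was met by 12.5% of all genes with spike-in, by 10% without and by 8.88% in both sets, beside 23.3%, 20% and 20% of the 30 genes. ERG25 encodes the methyl oxidase of the demethylation complex. The electron donors NCP1 and MCR1, the acyltransferases ARE1 and ARE2 and the regulators ECM22 and UPC2 had no Hda1-myc on the coding region in any library. ERG2, ERG4, ERG13 and ERG24 had coding coverage that did not pass the call, up to 41.6% in a single library of ERG2, and the other genes had none.

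ERG3 was covered by Hda1-myc to 100% and 80.5% with spike-in and to 97.3% and 96.8% without. ERG25 was covered to 94.4% and 91.6% with spike-in and to 80.8% and 80.4% without. ERG6 was covered to 99.3% and 100% with spike-in and to 82.8% and 44.6% without. In these 3 genes Hda1-myc spanned most of the coding region in 11 of the 12 library values above. The untagged libraries had no peak on any of the 30 genes, upstream or coding, including the one with 235 peaks.

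ERG10 had 79.3% and 67.4% with spike-in and 31.2% and 26.1% without. ERG5 had 85.7% and 46.4% with spike-in and 20.5% and 53.1% without, and ERG11 had 100% and 40.4% with spike-in and 33% and 26.4% without. ERG1 had 74.4% and 45.9% with spike-in and 66.7% and 0% without. The replicates of ERG5 and ERG1 were far apart in both sets and those of ERG11 in the spike-in set, while those of ERG10 lay closer together. Every Hda1-myc value but the last of ERG1 lay above untagged cells. The call itself requires this of each gene in a set where it was called.

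On average over the 30 genes, Hda1-myc covered more of the coding region than of the stretch just before the start codon, but single peaks crossed the start. On ERG11 the peak of replicate 1 of the spike-in set ran from -38 to 1815 bp, over the start codon and past the end of the gene. The peak on ERG11 was at chrVIII:121025-121668 in replicate 2 of the spike-in set, in the coordinates of the peak lists, and ran from 15 to 658 bp after the start codon. Without spike-in it ran from 153 to 677 bp and from 252 to 672 bp. On ERG6 the peaks with spike-in ran from -1721 to 1143 bp and from -24 to 1171 bp, and those without lay wholly after the start codon. The bins at 750 and 850 bp exist in 27 and 26 of the 30 genes. With spike-in, Hda1-myc covered on average 24.1% and 25% of them, against 8.48% and 7.78% over all genes long enough. Of the last 100 bp before the start codon of all 30 it covered 3.33%, against 9.15% over all genes. Without spike-in the values were 19.2% and 18% inside the genes, against 6.79% and 6.01%, and 0% before the start codon, against 6.49%. A peak over the start codon was found at 4 and 1 genes with spike-in and at none without.

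Upstream, ERG26 alone carried Hda1-myc by the call, in each set, as did 12.5% of all genes with spike-in, 10.4% without and 9.86% in both. It had 70.8% and 64% of its 400 bp covered with spike-in and 35.8% and 31.8% without, and the peak was at chrVII:496620-497350 in replicate 1 of the spike-in set. By their systematic names, ERG26 (YGL001C) and the neighbour EFM5 (YGR001C) are the innermost genes of the left and right arms of chromosome VII, which flank the centromere. The peaks with spike-in ran from -848 to -118 bp and from -885 to -145 bp, across part of the stretch between the genes and into EFM5, which had 24.2% and 28.3% of its coding region under them. Mean Hda1-myc coverage of the 30 genes was 19% ± 4.36 on the coding region, against 10.5% over all genes, with spike-in, and 13.7% ± 1.64, against 8.24%, without. Upstream it was 4.33% ± 2.82, against 9.58%, with spike-in, and 2.33% in replicate 2 alone, and 1.13% ± 0.106, against 7.04%, without.

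The Hda1-myc peaks on these genes were low ones for their libraries. Ranked by the fold of the highest peak touching the gene or its 400 bp among all genes with a peak, the median of the ergosterol genes was at the 15.8th and 10.7th percentile with spike-in (10 and 9 genes) and at the 8.46th and 7.54th without (11 and 9 genes). The highest was ERG26, at the 43.7th and 40.9th percentile with spike-in, and ERG3 was at the 22.3rd and 23.2nd without. The acetylation peaks of the ergosterol genes had median percentiles from 47.9 to 64.9 over the 18 libraries.

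**Figure D5:**
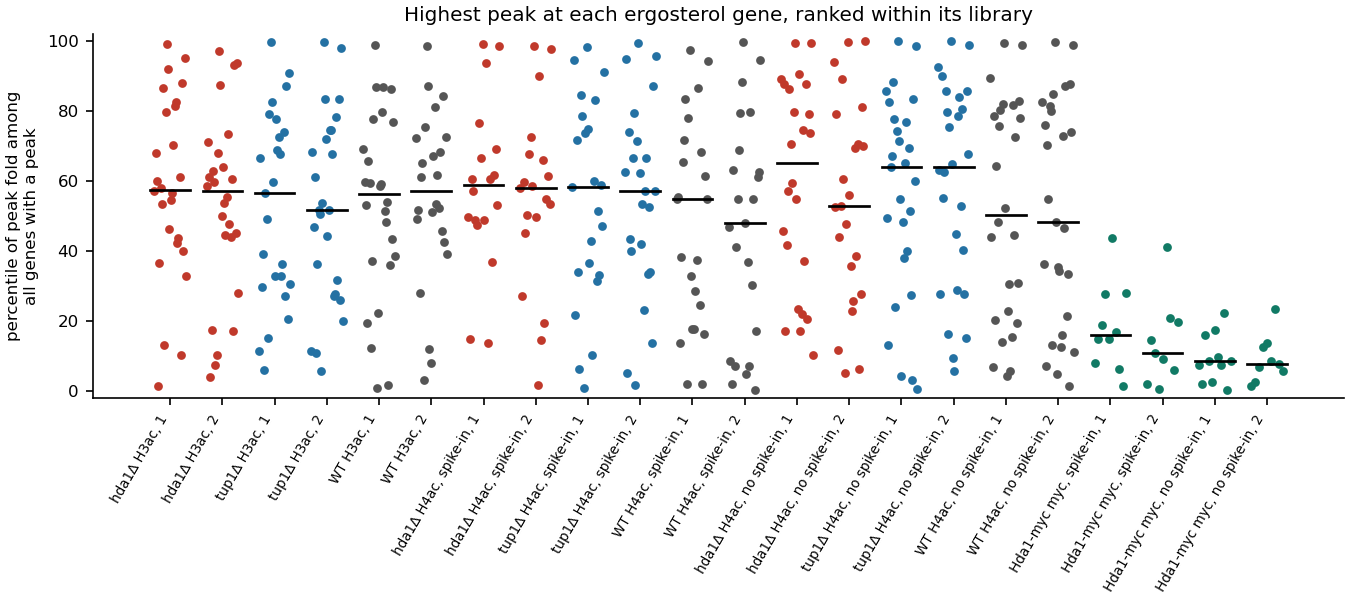
Percentile of the highest peak at each ergosterol gene among all genes with a peak in the same library (y axis, by deposited fold), for each acetylation and Hda1-myc library (x axis), with 1 point for each gene. The acetylation points spread over nearly the whole range, whereas the Hda1-myc points lie between 0.254 and 43.7.

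Without the Arb2 domain, no myc peak was found on any of the 6 genes. The paper reports a partly reduced level of the Hda1 protein in such cells, which was not taken into account here. ERG3, ERG5, ERG6, ERG10, ERG11 and ERG25 were at 0% in all 4 libraries of the Arb2 deletion, and lost coverage relative to Hda1-myc in both sets, as did 9.61% of all genes with spike-in, 7.38% without and 5.7% in both. Upstream, ERG26 was at 0% in the same 4 libraries, a loss met by 11.5%, 9.33% and 8.5% of all genes. The 6 genes and ERG26 were picked by the Hda1-myc libraries that are also the reference here, which favours a loss by construction. The single peak of the Arb2 deletion on an ergosterol gene was at ERG1, with 44% in replicate 1 of the spike-in set and 0% in the other 3 libraries.

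The 533 genes of the genome called for Hda1-myc in both sets, the 6 ergosterol genes included, kept part of their coverage in the Arb2 deletion. It was 45.7% and 4.03% with spike-in, where replicate 2 is the library with 59 peaks, and 40.1% and 21.5% without, against 83.7% and 80.4% and 78.3% and 75.8% for Hda1-myc. The 6 ergosterol genes had 0% in the Arb2 deletion, against 93.1% and 71.1% with spike-in and 57.6% and 54.6% without for Hda1-myc. Both groups of genes were picked by these Hda1-myc libraries, so that their high Hda1-myc coverage is given by the choice. The Hda1-myc peaks of the ergosterol genes rank low in each library, and the lists of the Arb2 deletion are shorter. A lower signal and a peak that falls below the calling threshold therefore cannot be told apart here. When each of these libraries was left out in turn, 6 to 8 genes were called for the loss on the coding region in each set.

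Of the 6 genes with Hda1-myc, ERG10 and ERG3 gained H3ac over the coding region in hda1∆, and ERG6 gained H4ac with spike-in, with 55.2% and 45.1% in hda1∆, against 34.8% and 33.8% in WT, and ERG10 without, with 94.7% and 97.7% in hda1∆, against 72.7% and 70.8% in WT. ERG11 lost H4ac with spike-in. ERG25 had no H4ac peak in any of the 12 H4ac libraries, and H3ac of 43.7% and 37.2% in hda1∆, against 39.8% and 0% in WT. Mean H4ac coding coverage of the 6 genes was 25.6% and 22.6% in hda1∆, against 23.1% and 23.5% in WT, with spike-in, and 49.4% and 43.2% in hda1∆, against 41% and 40.2% in WT, without. Over the 533 genes it was 42.4% and 41.6% in hda1∆, against 33.6% and 35% in WT, with spike-in, and 44.7% and 44.5% in hda1∆, against 36.3% and 35.9% in WT, without.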

How the data were processed

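The authors aligned reads with Bowtie2 2.2.5, filtered them with Picard 2.6 and bedtools 2.26.0 and called peaks per library with MACS2 2.1.0 at a q of 0.05. The submitters' processing notes list R64 and sacCer3 and the methods R61-1-1 as the genome. The methods also give the spike-in to all but the H3ac libraries, whereas the labels divide the sets as used here. Of 54 samples, 24 (input or total H3) have no peak list in the files used here. Each deposited list gives a score, a fold enrichment over control (a ratio), and p-value and q-value as −log10 for every peak. The fold was used to rank peaks within a library and the q-value for a stricter threshold.

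Peak coverage was computed with Python 3.11.15, pandas 2.3.3 and NumPy 2.4.6 for the coding region (start to stop codon) and the 400 bp upstream of 6002 genes, with gene positions from the RefSeq R64 table, whose coordinates are not printed because the builds may differ. The calculation was tested on simulated peaks. Calls need a margin of 10 points in both libraries. The 30 genes, the gene lists and the rule were chosen with earlier results of these data known. Values per library are given for genes called in any comparison, for paralog pairs and for ERG11. Alternatives were a stricter q, equal covered length, gene positions moved by 200 bp, a 200-bp window, a touch of 1 bp, a margin of 25 points, a replicate block and leaving out each library. Depth is unknown, so no interval was computed. Promoter motifs were not analysed here, for want of a sequence.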

Additional observations from a re-analysis of the deposited data

Results flagged for a closer look

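At 2 genes the H4ac change in hda1∆ had opposite directions in the 2 sets, with both hda1∆ libraries on one side of both WT libraries in each set. The difference between the sets was not tested. Coding coverage of ERG11 differed by -16.9 points in the spike-in set, from 0% and 0% in hda1∆, against 15.4% and 18.3% in WT, and by 8.79 points in the set without spike-in, from 26.2% and 29.3% in hda1∆, against 20.5% and 17.4% in WT. Coding coverage of ARE1 differed by 4.66 points with spike-in, from 51.2% and 50.4% in hda1∆, against 46.8% and 45.5% in WT, and by -3.25 points without, from 39.3% and 39.4% in hda1∆, against 45.6% and 39.7% in WT.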

How the results depend on the processing

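The depth of the libraries is unknown. Of the mean differences over the 30 genes (20 comparisons by region), 187 of 230 recomputed values stayed within the spread between replicates and 43 moved further. 13 had the opposite sign. 9 of these belong to the H3ac upstream differences, which are near 0, and 4 to H4ac differences given next. The cause of these changes was not tested, except where the construction gives it.

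With all lists of a comparison reduced to the same covered length, by their most significant peaks, H4ac coding differences turned to 0.653 (hda1∆, spike-in), 7.13 (hda1∆, without) and -2.11 (tup1∆, without), and the upstream hda1∆ differences came to -8.25 with spike-in and -3.83 without. All 8 myc differences became 0, because the short untagged or Arb2 list sets the length.

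Counting genes touched by 1 bp, in percent of the 30 genes, gave 1.67 for H3ac coding in hda1∆, -21.7 and -11.7 for H4ac coding in hda1∆ with and without spike-in, -18.3 for H4ac upstream in hda1∆ without, 0 for H4ac coding in tup1∆ in both sets and -5 for H4ac upstream in tup1∆ without. For Hda1-myc over untagged cells it gave 28.3 on the coding region in both sets, and 11.7 and 5 upstream. For the Arb2 deletion it gave -26.7 and -28.3 on the coding region, and -11.7 and -5 upstream.

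Moving gene positions by 200 bp gave -4.50 for H4ac coding in hda1∆ with spike-in, -7.79 and, the other way, -12.2 for H4ac upstream in hda1∆ without, and 1.56 and 1.83 for H4ac coding in tup1∆ without. Upstream, Hda1-myc over untagged cells came to 7.58 with spike-in and to 5.59 and 2.39 without, and the Arb2 deletion to -7.58 with spike-in and to -5.59 and -2.39 without. A 200-bp window gave -15.5 and -14.5 for H4ac in hda1∆ with and without spike-in, and 0 for both myc comparisons without spike-in.

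Leaving out 1 library at a time, the H3ac coding difference in hda1∆ ran from 5.23 to 11.2 points, and the H3ac upstream differences changed sign, from -4.12 to 4.52 in hda1∆ and from -3.69 to 4.95 in tup1∆. The H3ac coding difference in tup1∆ ran from 1.43 to 7.38, the H4ac differences in tup1∆ with spike-in from 1.81 to 4.47 on the coding region and from 2.85 to 7.71 upstream, and without spike-in the H4ac coding differences from -1.77 to -0.107 in hda1∆ and from 0.472 to 1.28 in tup1∆. Hda1-myc over untagged cells upstream with spike-in ran from 2.33 to 6.33. The mean differences other than H3ac upstream kept their sign. Fewer libraries make a call easier by construction, and without hda1∆ replicate 2 the H3ac upstream gains came to 4 genes, and without WT replicate 2 the losses to 6. At a margin of 25 points, H3ac coding gains numbered 3 in hda1∆ and 1 in tup1∆.

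Same-numbered libraries of the 2 strains compared did not deviate together in coding coverage (correlations from -0.0255 to 0.0793), so the numbers were not used to pair them. These correlations cannot exclude that same-numbered libraries were prepared together. With the replicate number as a block the H3ac coding difference in hda1∆ was 8.21 points, as without it, and H4ac losses in tup1∆ without spike-in came to 4 coding genes instead of 2.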

Other observations

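Another list held 28 genes linked to sterols, among them genes for transport, storage and uptake. Over their coding regions, H3ac in hda1∆ was gained at 6 (ATF2, HES1, PDR11, PRY1, SUT1 and TGL1) and lost at OSH7, where 11.3% of all genes gained and 2.65% lost. In tup1∆ it was gained at 6 (ARV1, ATF2, HES1, PDR11, PRY1 and YEH1) and lost at OSH7 and SUT1, where 10.3% of all genes gained and 4.97% lost. PDR11 encodes a sterol importer and ATF2 a sterol acetyltransferase, and HES1 belongs to the oxysterol-binding protein family. Mean H3ac coding coverage of the 28 genes was 39.7% ± 1.03 in hda1∆, 35.5% ± 3.93 in tup1∆ and 31.4% ± 0.587 in WT (SD, n = 2), against 35.4%, 33.3% and 30.6% over all genes in the same order. H4ac coding coverage in hda1∆ was gained at none of them and lost at SAY1 and YEH1 with spike-in (4.27% of all genes gained and 10.9% lost), and was gained at ATF2 and PDR11 and lost at SAY1, SUT1 and SUT2 without (4.42% gained and 12% lost). HES1 and ATF2 gained H4ac over the coding region in tup1∆ in both sets, a call met by 4.52% of all genes.

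Hda1-myc was called on the coding region of HAP1 and upstream of OSH7 in both sets, and at no other of the 28 genes, where 8.88% of all genes were called on the coding region and 9.86% upstream. The 8 genes of the branches that leave the pathway at farnesyl pyrophosphate had none. Of these, NUS1, a subunit gene of the enzyme that makes dolichol precursors, lost H4ac over the coding region in hda1∆ in both sets, as did 4.95% of all genes, and BTS1, the geranylgeranyl diphosphate synthase gene, in the spike-in set, as did 10.9% of all genes.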
